A study of Homo sapiens with 4 samples.

Results

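Semaphorins are guidance proteins that cells secrete or carry on their surface, and plexins and neuropilins are the receptors that read them. The 31 genes described here are 20 semaphorins, 9 plexins and 2 neuropilins, chosen by gene symbol, and all 31 matched an Ensembl identifier among the 57773 genes listed for each library. RNA-seq of polyadenylated transcripts gave their levels in MIA-PaCa2, an established line of human pancreatic cancer, with 2 libraries of untreated cells and 2 of cells made resistant to AMG510 (sotorasib), a small-molecule cancer drug. Untreated cells grew without the drug. The resistant cells had been kept for 2 months in rising amounts of AMG510, up to 5 µM, and are described as a pair of populations grown out of the same line. All 4 libraries come from that line, and the labels do not say whether the drug was present at harvest. For resistant replicate 2 the drug is written AMG511 in one label and AMG510 in the other ones, and it was kept in the resistant group.

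Plexins are transmembrane receptors whose inner part acts as a GTPase-activating protein for small GTPases and recruits further GTPase regulators, so that a bound semaphorin can change adhesion and the actin skeleton. Class 3 semaphorins are secreted, and most of them bind a neuropilin, which has no signalling domain of its own and passes the signal to a plexin. Semaphorins of classes 4 to 6 span the membrane, that of class 7 is lipid-anchored, and these mostly bind plexins directly. In epithelial tumours the family has been linked to migration, invasion, nerve contact and blood vessel growth.

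The libraries held between 30146559 and 38052558 expected counts, and 16090 genes had enough counts for a test. Values are CPM, counts per 1000000 counts of the TMM-adjusted library, and a count of 0 allows up to 3 counts, which came to 0.0801 to 0.104 CPM. These limits cover counting error only. Across the tested genes, as a description, log2 CPM had a Pearson's r of 0.985 for the untreated pair, 0.98 for the resistant pair and 0.91 to 0.931 for pairs from different groups. The replicates are described as separate populations, but not whether they were selected or cultured independently, so p-values measure only the spread among these 4 libraries. Keratins, which mark cells of epithelial origin, were present, with KRT8 between 961.8 and 3091 CPM and KRT18 between 957.2 and 2282 CPM, and both were called lower in resistant cells. The summed level of the 5 epithelial markers was 5636 and 3955 CPM in untreated and 2055 and 2620 CPM in resistant cells. Of the other epithelial markers, KRT19 was at 259.7 and 142 CPM in untreated and 132.9 and 150.8 CPM in resistant cells, which overlapped, and was not called (adjusted p = 0.179), EPCAM stayed between 1.33 and 2.09 CPM and CDH1 between 0.622 and 1.21 CPM. Markers of other cell types were mixed. Below 1 CPM in all 4 libraries were 3 of 4 endothelial, 4 of 5 fibroblast, 3 of 5 immune and 1 of 4 neural markers. The neural marker SYT1 was at 19.8 to 30.4 CPM. The summed level of 4 endothelial markers ran from 4.38 to 8.50 CPM in untreated and from 1.04 to 5.93 CPM in resistant cells, most of it CDH5, and TEK and TIE1 stayed below 0.14 CPM. Of the 4 neural markers STMN2 had 0 counts in all 4 libraries, and the sum was 25.0 to 31.9 CPM in untreated and 27.4 to 33.9 CPM in resistant cells, most of it SYT1, with ELAVL3 called higher and SNAP25 lower in resistant cells. The 5 fibroblast markers summed to at most 0.561 CPM in untreated and to 2.52 and 5.31 CPM in resistant cells, most of that PDGFRB. The 5 immune markers summed to 10.7 and 16.3 CPM in untreated and to 2.03 and 2.04 CPM in resistant cells, most of it LYZ and CD14, while PTPRC stayed below 0.14 CPM. The part of these markers in the results was not tested. In such bulk samples fewer cells that express a gene and less RNA per cell cannot be told apart.

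Which genes of the family differ in cells selected for growth in the drug was the question of this comparison. PLXNA2, a receptor barely present in untreated cells, rose 21.1-fold, whereas SEMA6B, its membrane-bound ligand and the member with the highest level per length in untreated cells, fell by 2.08 on the log2 scale. The other risers were 3 plexins (PLXNA3, PLXNB2 and PLXNB3) and 3 semaphorins (SEMA3C, SEMA4B and SEMA4F), each between 2.08-fold and 2.81-fold. Of the 2 neuropilins 0 were called by edgeR or DESeq2, and 0 had an unadjusted p below 0.05. Of the 31 members 23 had enough counts for a test, 7 rose, 1 fell and 15 did not pass at an adjusted p below 0.05 in edgeR's quasi-likelihood test with Benjamini-Hochberg adjustment over all tested genes. Over all 16090 tested genes 34.0% were called, 16.6% higher and 17.4% lower, so the 8 called members (34.8% of those tested) lay near that background. All 8 called members differed at least 2-fold, a limit that was not among the planned thresholds. Calls of that size thus made up 34.8% of tested members and 17.3% of all tested genes, where 2785 of the 5463 called genes reached 2-fold. The median log2 change (resistant over untreated) of the tested members was 0.43, against −0.01 over all tested genes. In 14 tested members resistant and untreated values lay apart without overlap (12 higher and 2 lower in resistant cells). Over all tested genes 70.9% did not overlap, 34.6% being higher and 36.3% lower.

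**Figure D1:**
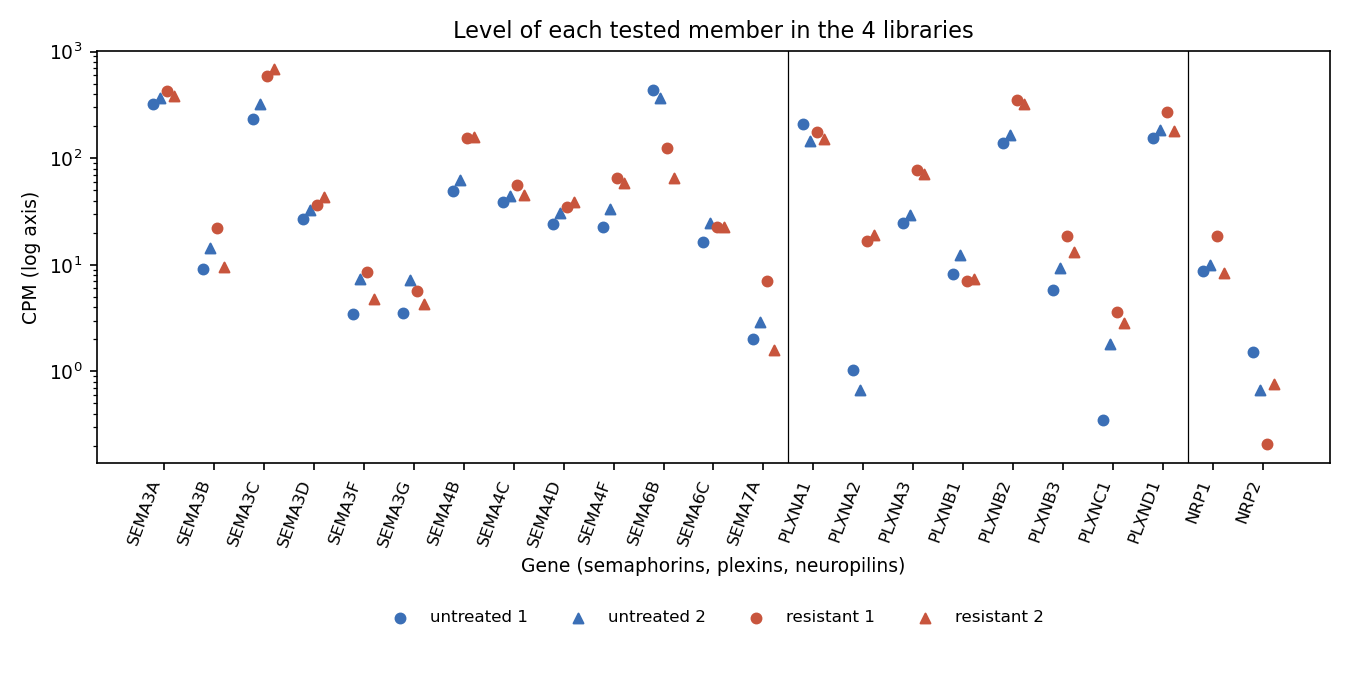
CPM on a log axis of the 23 tested members in each of the 4 libraries (blue, untreated; red, resistant; circles, replicate 1; triangles, replicate 2), with vertical lines between semaphorins, plexins and neuropilins. PLXNA2 lies near 1 CPM in untreated and above 16 CPM in resistant cells, and SEMA6B is the semaphorin whose resistant values lie below both untreated ones.

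The secreted class 3 semaphorins were led by SEMA3A and SEMA3C. SEMA3A, the growth cone collapsing factor that binds NRP1, was at 324.1 and 363.7 CPM in untreated replicates 1 and 2 and at 423 and 382.4 CPM in resistant replicates 1 and 2. Both resistant values were above the untreated ones, but the log2 change of 0.23 (SE 0.16) did not pass (adjusted p = 0.310). SEMA3C (ENSG00000075223, chromosome 7), which guides neural crest and vessel cells, was at 231 and 322.4 CPM in untreated and 593.4 and 679.4 CPM in resistant cells. The lower resistant value lay well above the higher untreated one, and SEMA3C rose from 277 ± 64.6 CPM to 636 ± 60.8 CPM (SD, n = 2; log2 change 1.20, SE 0.20, adjusted p = 0.00141).

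SEMA3D, a class 3 ligand with roles in heart and vessel development, had 26.9 and 32.5 CPM in untreated and 36.7 and 43.5 CPM in resistant cells. The groups did not overlap, and the log2 change of 0.43 (SE 0.19) did not pass (adjusted p = 0.0957). SEMA3B, a secreted ligand encoded in a region of chromosome 3 often lost in tumours, had 9.10 and 14.3 CPM in untreated and 22.05 and 9.59 CPM in resistant cells. Its groups overlapped, with the resistant populations far apart (log2 change 0.43, adjusted p = 0.449). Without resistant replicate 2 it passed, at a log2 change of 0.91 and an adjusted p = 0.0243, and without resistant replicate 1 the sign turned, at −0.27. SEMA3F, the NRP2 ligand of the same region, had 3.44 and 7.37 CPM in untreated and 8.56 and 4.77 CPM in resistant cells, and SEMA3G, another NRP2 ligand, had 3.52 and 7.19 CPM against 5.62 and 4.29 CPM. Both overlapped between groups, with adjusted p = 0.624 and adjusted p = 0.847. SEMA3E, which binds PLXND1 without a neuropilin, had 1 count in resistant replicate 2 and 0 in the other libraries.

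Among the membrane-bound class 4 semaphorins 2 of 4 tested members rose, where 16.6% of all tested genes did. SEMA4B (ENSG00000185033, chromosome 15), a class 4 ligand with no receptor pair assigned here, was at 48.8 and 62.6 CPM in untreated and 154.8 and 158.6 CPM in resistant cells. The resistant populations were alike and far above both untreated ones, a rise of 2.81-fold (log2 change 1.49, SE 0.17, adjusted p = 2.06e-04). SEMA4F (ENSG00000135622, chromosome 2), first studied in neurons, was at 22.6 and 33.7 CPM in untreated and 65.8 and 58.5 CPM in resistant cells. It rose from 28.2 ± 7.83 CPM to 62.2 ± 5.18 CPM (log2 change 1.14, SE 0.21, adjusted p = 0.00249). SEMA4C, a ligand of PLXNB2, had 39.0 and 44.2 CPM in untreated and 55.9 and 44.7 CPM in resistant cells, and SEMA4D, the PLXNB1 ligand also known as CD100, had 24.4 and 30.4 CPM against 34.5 and 38.5 CPM. In both the resistant values were above the untreated ones, and neither passed (log2 change 0.27, adjusted p = 0.261, and 0.41, adjusted p = 0.113).

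SEMA4A, a class 4 ligand known from immune cells and retina, had 3 and 4 counts in untreated and 43 and 9 counts in resistant libraries, too few to enter the test. Its summed counts differed by a ratio of 8.80 (95% counting interval 3.98 to 23.0). Without resistant replicate 2 SEMA4A entered the test through resistant replicate 1 alone, the library where it is high, at a log2 change of 3.93. With no filter on low counts it had an adjusted p = 7.58e-04. DESeq2 called it too (3.22, adjusted p = 0.0271), and it was not called without untreated replicate 1 (adjusted p = 0.131) or 2 (adjusted p = 0.0776). SEMA4G, a PLXNB2 ligand, had 8 counts in untreated replicate 2 and at most 1 in each of the others.

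The semaphorins of classes 5 to 7 held the only ligand that fell. SEMA6B (ENSG00000167680, chromosome 19), a transmembrane ligand of PLXNA2 and PLXNA4, was at 436.8 and 370.1 CPM in untreated and 125.3 and 65.3 CPM in resistant cells. Both resistant values were far below the untreated ones, and resistant replicate 1 was 1.92 times resistant replicate 2. SEMA6B fell from 403 ± 47.2 CPM to 95.3 ± 42.4 CPM (SD, n = 2; log2 change −2.08, SE 0.30, adjusted p = 0.00183). It was called without each library in turn, at log2 changes between −2.61 and −1.69. SEMA6C, a related membrane ligand, had 16.2 and 24.9 CPM in untreated and 22.7 and 22.9 CPM in resistant cells (log2 change 0.15, adjusted p = 0.653). SEMA7A, a lipid-anchored ligand of PLXNC1 and beta-1 integrins, had 2.03 and 2.91 CPM in untreated and 7.004 and 1.60 CPM in resistant cells.

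The resistant values of SEMA7A bracketed the untreated ones, and its log2 change of 0.79 (SE 0.63) did not pass (adjusted p = 0.370). SEMA7A passed without resistant replicate 2 (1.501, adjusted p = 0.0129) and was −0.61 without resistant replicate 1. SEMA6A, another ligand of PLXNA2 and PLXNA4, had 4 and 5 counts in untreated and 17 and 8 counts in resistant libraries, a difference of 3.29-fold after scaling (95% counting interval 1.49 to 8.01), and its adjusted p = 0.162 with no filter. SEMA5A, a ligand of PLXNB3, had at most 3 counts in a library, and SEMA6D, a ligand of PLXNA1, at most 1. SEMA5B, which acts on PLXNA1 and PLXNA3, had 14 counts in untreated replicate 2 and at most 1 in the other libraries.

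Of the 8 tested plexins 4 rose and 0 fell at an adjusted p below 0.05 in edgeR's test. By that test 16.6% of all tested genes rose and 17.4% fell. DESeq2 called 5 of these plexins higher and 0 lower, and over all genes 2682 higher and 2699 lower, whose share of the genes it tested was not computed. In edgeR's test 5 of the 8 had an unadjusted p below 0.05, a share not computed over all genes. Over all tested genes 34.0% passed the stricter adjusted threshold, so this count is not read as an excess. The stretches before the annotated starts of the 4 risers are shown because these are the plexins that were called higher. Each has 1 start in the RefSeq promoter table (build GRCh38.p14, whereas the processing notes of the counts name GRCh37). The 250 bases before that start are given 5′ to 3′ on the gene's own strand, with matches to GGGCGG, the core letters bound by SP1, or to its reverse complement CCGCCC in capitals.
PLXNA2, chr1:208244385-208244634, minus strand: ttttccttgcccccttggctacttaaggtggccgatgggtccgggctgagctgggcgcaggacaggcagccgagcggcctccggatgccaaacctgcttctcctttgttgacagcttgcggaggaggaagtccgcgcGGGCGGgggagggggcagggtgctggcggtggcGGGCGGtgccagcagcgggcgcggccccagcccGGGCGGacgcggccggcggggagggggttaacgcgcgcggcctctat
PLXNA3, chrX:154458031-154458280, plus strand: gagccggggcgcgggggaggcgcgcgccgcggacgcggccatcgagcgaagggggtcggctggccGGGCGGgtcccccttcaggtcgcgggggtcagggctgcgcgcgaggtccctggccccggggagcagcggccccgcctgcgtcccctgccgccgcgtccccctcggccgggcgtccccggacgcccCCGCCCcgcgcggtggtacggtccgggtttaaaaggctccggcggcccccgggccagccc
PLXNB2, chr22:50301670-50301919, minus strand: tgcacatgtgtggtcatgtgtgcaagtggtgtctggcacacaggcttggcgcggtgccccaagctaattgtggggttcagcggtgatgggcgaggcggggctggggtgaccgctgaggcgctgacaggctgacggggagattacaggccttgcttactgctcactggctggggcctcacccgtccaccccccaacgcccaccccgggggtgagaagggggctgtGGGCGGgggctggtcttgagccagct
PLXNB3, chrX:153763999-153764248, plus strand: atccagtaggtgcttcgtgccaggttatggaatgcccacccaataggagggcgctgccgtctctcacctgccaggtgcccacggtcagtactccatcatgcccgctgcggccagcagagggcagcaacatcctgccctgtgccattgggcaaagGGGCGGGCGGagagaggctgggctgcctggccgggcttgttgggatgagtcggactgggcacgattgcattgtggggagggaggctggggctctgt

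These 4 windows held 3, 2, 1 and 2 such matches, in that order, the last 2 overlapping each other. At least 1 match was present in 42.6% of the 35116 windows of that length listed by RefSeq. The windows were rich in G and C, at 72.4% in PLXNA2, 82.8% in PLXNA3, 66.4% in PLXNB2 and 64.4% in PLXNB3, where the median over all windows was 58%. None of the 4 windows held TGANTCA, the letters bound by AP-1 factors, or CCGGAA or its reverse complement TTCCGG, letters bound by ETS factors. Over all windows 6.57% held the AP-1 letters and 14.5% the ETS letters. The table had 48 windows for 27 of the members, of which 30 held the SP1 letters, 5 the ETS letters and 1 the AP-1 letters. Plexins that were not called had SP1 matches too, with 9 in PLXND1, 5 in PLXNA1, 5 and 0 in PLXNB1 and 5 and 1 in PLXNC1. PLXNA4, which was not tested, had 0. G and C made up 88.8% in PLXND1 and 84.4% in PLXNA1, so neither trait was particular to the risers.

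PLXNA2 (ENSG00000076356, chromosome 1), a receptor for SEMA6A and SEMA6B and, with NRP1, for SEMA3A, was at 1.03 and 0.668 CPM in untreated and 16.9 and 19.0 CPM in resistant cells. These rest on 38 and 25 counts in untreated and on 489 and 643 counts in resistant libraries, and both resistant values were many times the untreated ones. PLXNA2 rose from 0.848 ± 0.255 CPM to 17.9 ± 1.53 CPM (SD, n = 2; log2 change 4.40, SE 0.33, adjusted p = 1.16e-05). Its log2 change lay between 4.11 and 4.76 without each library in turn. PLXNA3 (ENSG00000130827, chromosome X), a partner of neuropilins in class 3 signalling, was at 24.8 and 29.2 CPM in untreated and 77.1 and 70.4 CPM in resistant cells. The groups were clearly apart (log2 change 1.45, SE 0.17, adjusted p = 2.12e-04).

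PLXNB2 (ENSG00000196576, chromosome 22), the receptor of class 4 semaphorins such as SEMA4C, was at 138.9 and 165.9 CPM in untreated and 350.6 and 325.1 CPM in resistant cells. Both resistant populations were above both untreated ones, a rise of 2.22-fold (log2 change 1.15, SE 0.17, adjusted p = 8.22e-04). PLXNB2 lies among genes that were higher too. The median log2 change of tested protein-coding genes was 0.46 on chromosome 22, and 0.75 among the 20 nearest to PLXNB2, of which 11 rose and 1 fell. The part of this neighbourhood in the rise of PLXNB2 was not tested. PLXNB3 (ENSG00000198753, chromosome X), the receptor of SEMA5A, was at 5.85 and 9.40 CPM in untreated and 18.5 and 13.2 CPM in resistant cells. It rose 2.08-fold (log2 change 1.05, SE 0.30, adjusted p = 0.0194), and this call ended without untreated replicate 1 (0.77, adjusted p = 0.118) or resistant replicate 1 (0.81, adjusted p = 0.0668).

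PLXNA1, the class A plexin with the highest level per length in both groups, had 211.5 and 143.7 CPM in untreated and 175.7 and 150.6 CPM in resistant cells. The resistant values lay between the untreated ones (log2 change −0.12, SE 0.20, adjusted p = 0.674). PLXND1, which binds SEMA3E and SEMA4A and shapes vessels, had 155.5 and 182.9 CPM in untreated and 270.8 and 178.2 CPM in resistant cells. It did not pass (log2 change 0.41, SE 0.21, adjusted p = 0.161), but passed without resistant replicate 2 (0.68, adjusted p = 0.0206). PLXNB1, the receptor of SEMA4D, had 8.23 and 12.3 CPM in untreated and 7.004 and 7.31 CPM in resistant cells, with both resistant values below the untreated ones and an adjusted p = 0.185 (log2 change −0.52, SE 0.29).

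PLXNC1, the plexin of SEMA7A, had 0.352 and 1.79 CPM in untreated and 3.59 and 2.84 CPM in resistant cells. The untreated libraries lay 5.08-fold apart, and the log2 change of 1.58 (SE 0.65) did not pass (adjusted p = 0.0921). PLXNC1 was called without untreated replicate 2, at a log2 change of 3.17 and an adjusted p = 0.00183, and had a log2 change of 0.87 without untreated replicate 1. It was also called with no filter (adjusted p = 0.00362), with DESeq2 (adjusted p = 0.0437), with limma-voom (adjusted p = 0.0330) and with edgeR's newer quasi-likelihood form (adjusted p = 0.0462). PLXNA4, a receptor of SEMA6A and SEMA6B, had 1 and 1 counts in untreated and 4 and 23 counts in resistant libraries, which differ 16.0-fold in sum after scaling (95% interval from counting 4.02 to 139). It was too sparse for the test, and with no filter its adjusted p = 0.00463. Without resistant replicate 1 PLXNA4 entered the test through resistant replicate 2 alone, the library where it is high, at a log2 change of 4.51. It was not called with DESeq2 (adjusted p = 0.0792) or without untreated replicate 1 (log2 change 3.80) or 2 (3.75).

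The neuropilins, which also bind growth factors of the VEGF family, were low in this line. NRP1, the co-receptor of SEMA3A, had 8.77 and 9.99 CPM in untreated and 18.5 and 8.38 CPM in resistant cells. Resistant replicate 1 stood above and resistant replicate 2 below both untreated values, with a log2 change of 0.52 (SE 0.35, adjusted p = 0.286). NRP1 passed without resistant replicate 2 (0.98, adjusted p = 0.0153) and was at −0.15 without resistant replicate 1. NRP2, the co-receptor of SEMA3F, had 56 and 25 counts in untreated and 6 and 26 counts in resistant libraries, that is 1.52 and 0.668 CPM against 0.207 and 0.770 CPM. It entered the test through the untreated libraries alone, where it was higher, the groups overlapped, and it did not pass (log2 change −1.13, SE 0.69, adjusted p = 0.229).

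**Figure D2:**
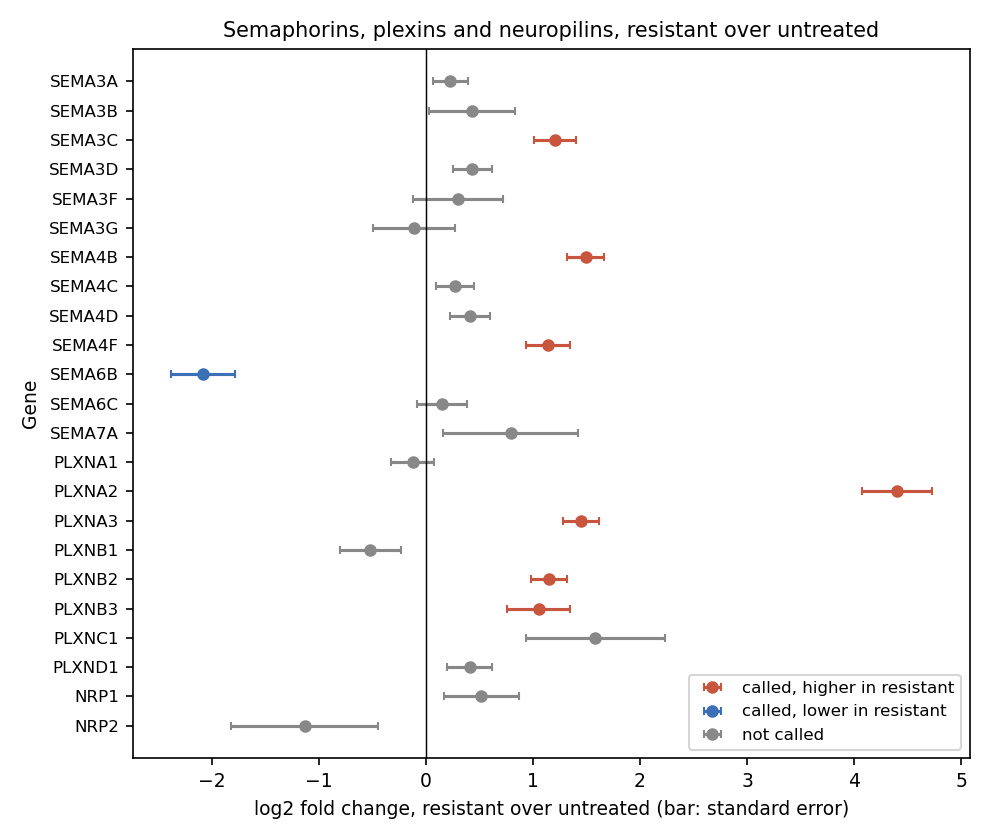
Log2 change of each tested member, resistant over untreated, with its standard error (red, called higher; blue, called lower; grey, not called at an adjusted p of 0.05). PLXNA2 at 4.40 and SEMA6B at −2.08 lie farthest from 0 among the called members, and the other 6 called members lie between 1.05 and 1.49.

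Levels of different genes were compared as CPM per kilobase of merged exons. In untreated cells the order began with SEMA6B (91.4 CPM per kb), SEMA3C (44.1), SEMA3A (36.7), PLXNB2 and PLXND1 (17.4). In resistant cells it began with SEMA3C (101.5 CPM per kb), PLXNB2 (46.6), SEMA3A (43.0), PLXND1 (23.1) and SEMA4B (22.4), and SEMA6B was next, at 21.6. The untreated values of SEMA3C (36.9 and 51.4 CPM per kb) and SEMA3A (34.6 and 38.8) overlapped, whereas SEMA6B (99.0 and 83.9) lay above all others. PLXNB2 (19.1 and 22.9) lay just above PLXND1 (16.0 and 18.8), whose values overlapped those of PLXNA1 (19.3 and 13.1). In resistant cells SEMA3C (94.7 and 108.4) stood clear of the rest, while PLXNB2 (48.3 and 44.8) and SEMA3A (45.1 and 40.8) overlapped, as did PLXND1, SEMA4B and SEMA6B. PLXNA2 was at 0.0616 CPM per kb in untreated and at 1.303 CPM per kb in resistant cells, where it still lay below PLXNA1 (14.9) and PLXNA3 (6.30). NRP1 was at 0.814 CPM per kb in untreated and 1.17 CPM per kb in resistant cells, and NRP2 at 0.0786 and 0.0352 CPM per kb.

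**Figure D3:**
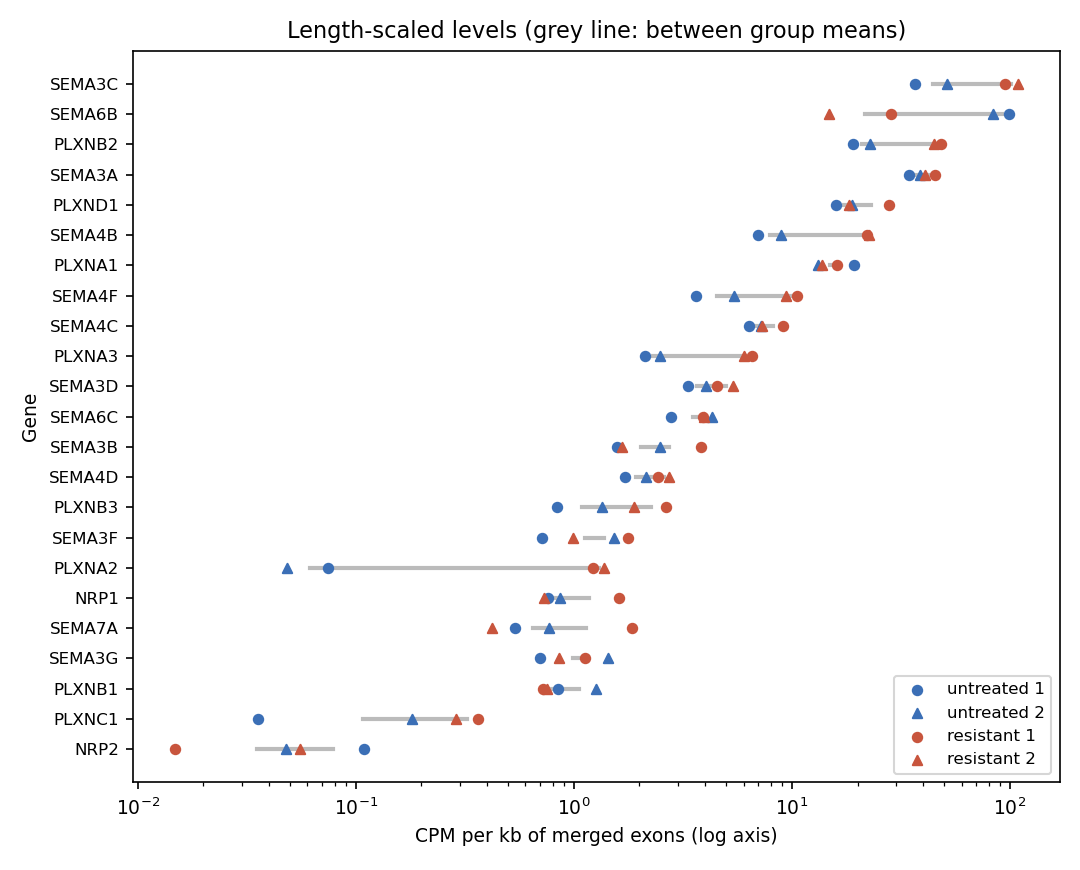
CPM per kilobase of merged exons on a log axis for the tested members in each library, ordered by the higher of the 2 group means, which the grey line joins. SEMA3C and SEMA6B reach the highest levels, SEMA6B in untreated and SEMA3C in resistant cells, and both neuropilins lie below 2 CPM per kb.

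The members were next read as 33 pairs of a ligand with a receptor, taken from general knowledge of the family, with 3 ligands (SEMA4B, SEMA4F and SEMA6C) left unpaired. Both partners were tested in 21 pairs. In 0 pairs were both called in the same direction, in 1 both were called in opposite directions, in 9 only 1 partner was called and in 11 neither was. Over all tested genes 34.0% were called, 16.6% higher and 17.4% lower. Many genes stand in more than 1 pair, so the pairs are not separate observations. The list may leave out known pairings, and the counts hold for the listed pairs only. It pairs SEMA3C with no class A plexin, although SEMA3C, PLXNA2 and PLXNA3 were all called higher. The count of 0 thus depends on which pairs were listed. The pair with opposite calls was SEMA6B with PLXNA2, in which the ligand fell by 2.08 and the receptor rose by 4.40 on the log2 scale. For SEMA3A, PLXNA2 and PLXNA3 rose while the ligand (0.23), NRP1 (0.52) and PLXNA1 (−0.12) did not pass. For SEMA3C the ligand rose while the receptors paired with it here, NRP1 (0.52), NRP2 (−1.13), PLXNB1 (−0.52) and PLXND1 (0.41), did not pass. PLXNB2 rose while the tested ligands paired with it here, SEMA4C (0.27) and SEMA4D (0.41), did not pass. PLXNB3 rose with its ligand SEMA5A almost uncounted in all 4 libraries. SEMA7A (0.79) and PLXNC1 (1.58) both had positive values that did not pass.

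Replicates of a group differed from each other within the family, in untreated and in resistant cells. Resistant replicate 1 was over 1.5 times resistant replicate 2 in 6 of the 23 tested members, namely SEMA3B (2.30), SEMA3F (1.79), SEMA6B (1.92), SEMA7A (4.38), PLXND1 (1.52) and NRP1 (2.21), and 9.90% of all tested genes had such a ratio. NRP2 was the member over 1.5 times higher in resistant replicate 2, at a ratio of 3.72, where 9.83% of all tested genes were. In the untreated pair 8 members differed over 1.5 times, with replicate 2 higher in SEMA3B, SEMA3F, SEMA3G, SEMA6C, PLXNB3 and PLXNC1 and replicate 1 higher in PLXNA2 and NRP2. Over all 16090 tested genes that pair leaned the same way, with 2375 over 1.5 times higher in replicate 2 and 721 in replicate 1. Such a gap in either direction was thus present in 34.8% of tested members in the untreated and 30.4% in the resistant pair, where 19.2% and 19.7% of all tested genes had one. With 1 library for each population these ratios have no replicate check.

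The semaphorin pathway list held 51 further genes: other ligands of neuropilins, co-receptors, the convertase FURIN, genes of GTPase signalling and cytoskeletal effectors. Of its 42 tested genes 15 rose, 4 fell and 23 did not pass, and the median log2 change was 0.12. Thus 45.2% were called where 34.0% of all tested genes were. The list was chosen with earlier results of these data known, so no conclusion is drawn from that difference. The calls of NRCAM, CD72, DPYSL4 and RND1 are of genes that entered the test only through the group where they are high. Among genes that passed the filter in both groups, a restriction chosen after seeing the data, 15 of 38 on the list were called (39.5%), and 33.8% of all such genes. Without untreated replicate 1 the list had 11 calls, 8 higher and 3 lower, and calls over all genes went from 5463 to 2832.

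Co-receptors held the largest changes. L1CAM (ENSG00000198910), an adhesion molecule that joins NRP1 in the SEMA3A receptor, was at 22.2 and 27.4 CPM in untreated and 525.2 and 224 CPM in resistant cells. Both resistant values were far above the untreated ones, and resistant replicate 1 was 2.35 times resistant replicate 2 (log2 change 3.91, SE 0.45, adjusted p = 0.00258). The call of L1CAM ended without untreated replicate 1 (3.79, adjusted p = 0.114) and without untreated replicate 2 (4.06, adjusted p = 0.105). NRCAM, the related partner of NRP2, was sparse, with 4 and 8 counts in untreated and 23 and 82 counts in resistant libraries, and it entered the test through the resistant ones alone (log2 change 3.30, SE 0.72, adjusted p = 0.00617). Without resistant replicate 2 it had a log2 change of 2.27 and an adjusted p = 0.0682.

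MET, the hepatocyte growth factor receptor that associates with class B plexins, was at 26.2 and 36.9 CPM in untreated and 55.0 and 58.9 CPM in resistant cells (log2 change 0.85, adjusted p = 0.00738). That call ended without untreated replicate 1 (0.65, adjusted p = 0.0566). CD72, a receptor for SEMA4D known from B cells and chosen after its value was seen, had 8 and 26 counts against 71 and 69 counts, with 15% of its exon length shared with TESK1, a gene on the opposite strand with a value of 1.27. It entered the test through the resistant libraries alone (2.29, adjusted p = 0.0126) and did not pass without untreated replicate 1 (1.71, adjusted p = 0.0709). PTK7, a receptor-like pseudokinase also chosen after its value was seen, fell from 76.8 ± 31.8 CPM to 33.7 ± 9.72 CPM (log2 change −1.19, adjusted p = 0.0331). Its call ended with the replicate number as a block (adjusted p = 0.0943), without untreated replicate 2 (−0.70, adjusted p = 0.0580) and without resistant replicate 2 (−0.92, adjusted p = 0.0844). CD44, a hyaluronan receptor, and ITGB1, the integrin chain that binds SEMA7A, were abundant and did not pass (0.21, adjusted p = 0.336, and 0.27, adjusted p = 0.221).

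VEGFB, a growth factor that binds NRP1, rose from 18.3 and 19.1 CPM in untreated to 51.3 and 30.9 CPM in resistant cells (log2 change 1.13, SE 0.24, adjusted p = 0.00584). VEGFA, the main vessel growth factor, did not pass (0.04, SE 0.26, adjusted p = 0.921) and had a value below 0 in 4 of the alternatives, and VEGFC, a lymphatic factor that binds NRP2, did not pass either (0.34, adjusted p = 0.159). FURIN, the protease that cleaves class 3 semaphorins, was at 60.3 and 65.0 CPM in untreated and 69.3 and 62.8 CPM in resistant cells (0.08, SE 0.16, adjusted p = 0.737).

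The GTPase signalling genes comprise GTPases, their regulators and downstream effectors. Of these 6 rose, 2 fell and 11 did not pass, where 16.6% of all tested genes rose and 17.4% fell. ARHGEF12, an exchange factor for RHOA that binds class B plexins, was at 127.1 and 138 CPM in untreated and 313.8 and 338.4 CPM in resistant cells. Its groups were well apart (log2 change 1.299, SE 0.16, adjusted p = 3.21e-04). RHOD, a GTPase that binds class A plexins, rose from 22.5 and 20.2 CPM to 56.2 and 47.8 CPM (1.28, SE 0.18, adjusted p = 6.06e-04), and PAK1, a kinase activated by RAC, rose from 27.97 and 31.04 CPM to 57.6 CPM in each resistant library (0.97, SE 0.16, adjusted p = 0.00174). ARHGEF12, RHOD and PAK1 all lie on chromosome 11, and the 20 tested protein-coding genes nearest to each had median log2 changes of 0.77, 0.58 and 0.41, against 0.42 over the chromosome. VEGFB and MICAL2, named here as risers, lie on chromosome 11 as well, with medians of 0.26 and 0.37 for their nearest 20, and MET on chromosome 7 had one of 0.48. The part of these neighbourhoods was not tested. The fallers, chosen after their values were seen, were TIAM1, an exchange factor for RAC (−1.46, SE 0.36, adjusted p = 0.0121), and RND1, a GTPase that binds plexins. RND1 had 51 and 42 counts in untreated and 15 and 6 counts in resistant libraries and entered the test through the untreated ones alone (−1.86, SE 0.62, adjusted p = 0.0393). It did not pass without untreated replicate 1 (−1.68, adjusted p = 0.188), untreated replicate 2 (−2.01, adjusted p = 0.0688) or resistant replicate 2 (−1.27, adjusted p = 0.214), nor with DESeq2 (−1.86, adjusted p = 0.0841). CFL1, the actin-severing cofilin (−0.15, adjusted p = 0.524), and RAC1 (0.16, adjusted p = 0.484) did not pass.

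Among cytoskeletal effectors 4 rose, 1 fell and 5 did not pass, where 16.6% of all tested genes rose and 17.4% fell. DPYSL2, the collapsin response mediator that carries SEMA3A signals to microtubules, was at 159.1 and 142.3 CPM in untreated and 43.2 and 45.0 CPM in resistant cells. It fell by 1.77 on the log2 scale (SE 0.16, adjusted p = 3.81e-05), with both resistant values far below the untreated ones. PNMA2 on the opposite strand, which shares 0.972% of the exon length of DPYSL2, had a value of −1.73. DPYSL4, a relative, was sparse, with 9 and 22 counts in untreated and 63 and 68 counts in resistant libraries, and entered the test through the resistant ones alone (2.32, SE 0.55, adjusted p = 0.00895). Without untreated replicate 1 it did not pass (1.85, adjusted p = 0.0591). MICAL2, an enzyme that oxidises actin, rose from 21.8 and 21.9 CPM to 52.6 and 33.0 CPM (0.97, SE 0.23, adjusted p = 0.00897). Without resistant replicate 1 it did not pass (0.61, adjusted p = 0.0617). GIPC1, an adaptor that binds the tail of NRP1 (0.07, adjusted p = 0.797), and MICAL3 (0.34, adjusted p = 0.163) did not pass.

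**Figure D4:**
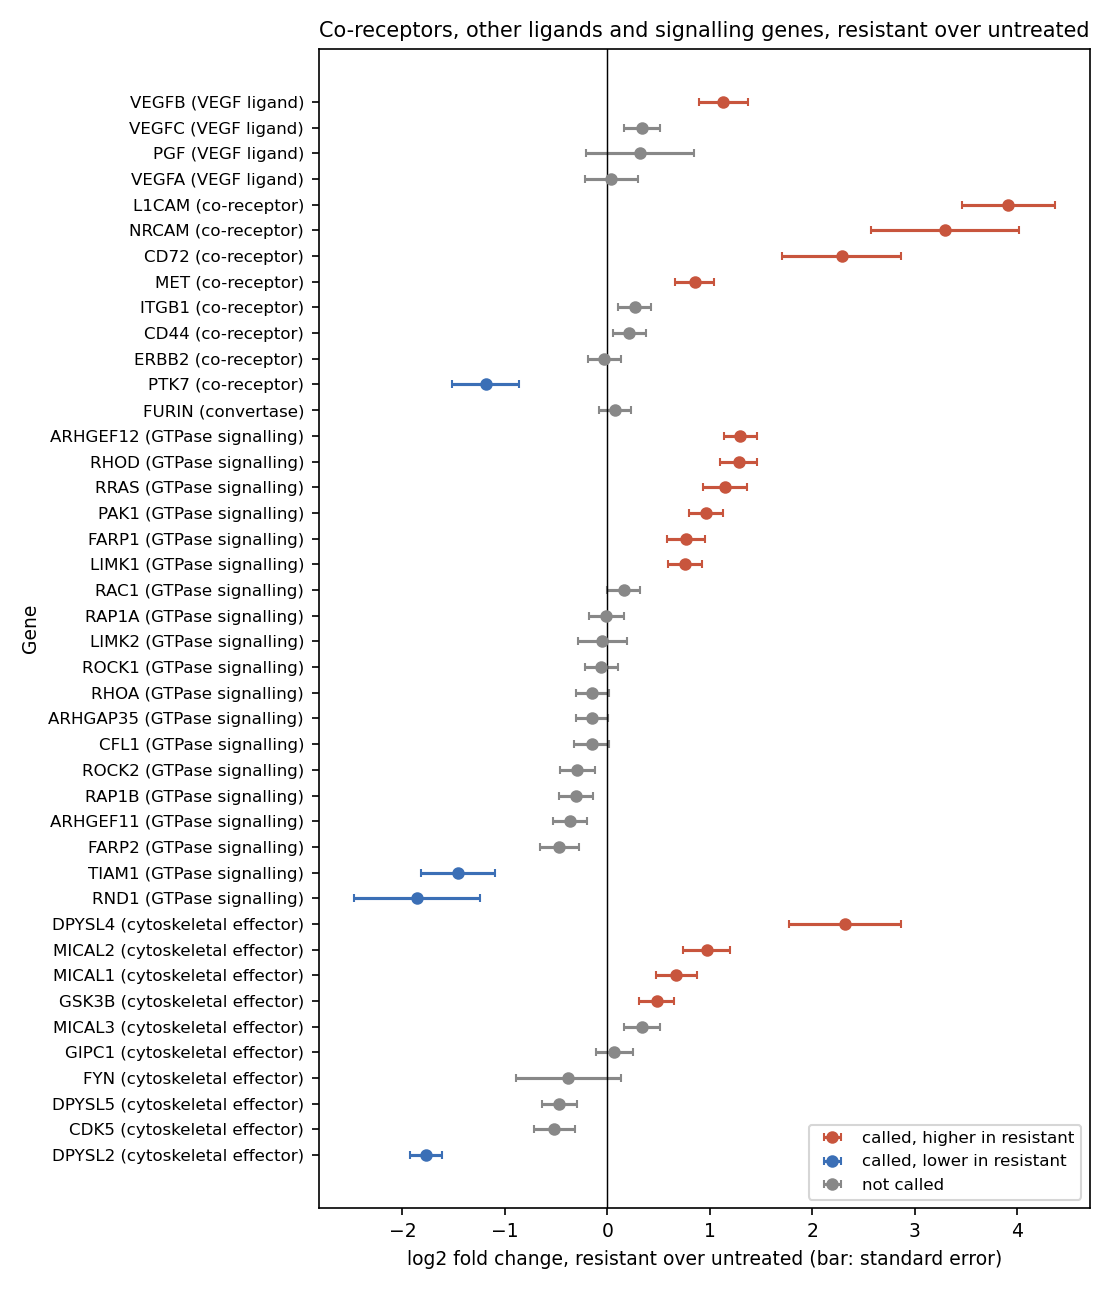
Log2 change with its standard error for the 42 tested genes of the pathway list, resistant over untreated, grouped by role (red, called higher; blue, called lower; grey, not called). L1CAM at 3.91 and NRCAM at 3.30 have the highest values, and RND1 at −1.86 and DPYSL2 at −1.77 the lowest, where NRCAM and RND1 entered the test only through the group in which they are high.

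PLXNB3, L1CAM and PLXNA3 lie close together on chromosome X, with L1CAM inside the stretch between the plexins, a position looked at after their values were seen. The gene order was taken from another build than that of the counts. Of the 18 tested protein-coding genes between PLXNB3 and PLXNA3, L1CAM included, 5 rose, 0 fell and 13 did not pass, with a median log2 change of 0.30. The median was 0.13 over chromosome X. Around the other called members the 20 nearest tested protein-coding genes had medians of 0.21 for SEMA3C, 0.03 for SEMA4B, −0.06 for SEMA4F, 0.07 for SEMA6B, 0.21 for PLXNA2, 0.13 for PLXNA3 and −0.12 for PLXNB3. Among members, SEMA4G shares 22.3% of its exon length with MRPL43, an expressed gene on the opposite strand, and PLXNC1 shares 1.79% with CEP83 and PLXNA3 0.0939% with LAGE3, so reads there may be split with these genes.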

How the data were processed

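The authors deposited expected counts per gene, per the file headers, in 1 table for each of the 4 libraries, not scaled to library size. The submitters' processing notes name STAR 2.7.2b, RSEM 1.3.1 and GRCh37, without roles. The annotation release and strand setting are not given in the sources used here. Sample titles gave the groups. Values were rounded to integers, 93.6% being whole already. Symbols came from a gene name table that named 39538 of 57773 IDs. All 31 members and 51 pathway genes matched, as did 23 of 25 cell type markers.

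Genes kept by edgeR's filterByExpr (16090) were scaled with TMM factors between 0.962 and 1.05. The 2 groups were then tested against each other by the quasi-likelihood F-test of edgeR 4.0.16 (robust dispersions, R 4.3.3), adjusted by Benjamini-Hochberg over all tested genes and called below 0.05. The standard error is the log2 change over the square root of F. The fit was tested on simulated data, in which few genes were changed and most changes of 2-fold or less were missed. In the real data 34.0% of tested genes were called, so the share missed in the simulation does not carry over to them. Exon lengths, gene order and overlaps came from GENCODE 29, which is of build GRCh38. The members and lists were chosen with earlier results of these data known. Every member is named. Of the pathway list the called genes of lowest adjusted p (at most 3 per role) and the uncalled ones of highest level (at most 2) are named, and others were named after their values were seen. Other settings tried were scaling by RLE or upper quartile, no filter, a stricter filter (1 CPM in 2 libraries), a replicate block, DESeq2 1.42.0, limma-voom (limma 3.58.1), each library left out, a threshold of 0.01, the longest transcript as length and, chosen after seeing the data, edgeR's newer quasi-likelihood form and only genes that pass the filter in both groups.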

Additional observations from a re-analysis of the deposited data

How the results depend on the processing

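The 8 members called in the main comparison were all called under RLE and upper-quartile scaling, with no filter or a stricter one, with the replicate block, DESeq2, limma-voom and the newer quasi-likelihood form, and 7 of them without untreated replicate 1, without resistant replicate 1 or at a threshold of 0.01, PLXNB3 being the one lost each time. Leaving out each library in turn, the members called numbered 7 to 13 (6 to 12 higher), the 13 without resistant replicate 2, where SEMA3B, SEMA4A, SEMA7A, PLXND1 and NRP1 joined. Leaving out libraries also gave 11 to 17 called pathway genes (8 to 14 higher and 2 to 4 lower). Over all genes it gave 2832 to 5041 calls, with 1510 to 2548 higher and 1322 to 2493 lower, the fewest without untreated replicate 1. At a threshold of 0.01 there were 2832 calls as well, 1444 higher and 1388 lower, and 1 pathway gene was lower.

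Signs turned only for genes that did not pass. Without untreated replicate 1 the log2 change was −0.13 for SEMA3F, −0.10 for SEMA6C, 0.21 for PLXNA1 and 0.0273 for CFL1. Without untreated replicate 2 it was 0.48 for SEMA3G, −0.03 for GIPC1 and −0.05 for VEGFA. Without resistant replicate 1 it was −0.27 for SEMA3B, −0.16 for SEMA3F, −0.61 for SEMA7A, −0.15 for NRP1, −0.12 for GIPC1 and −0.44 for VEGFA, and without resistant replicate 2 it was 0.07 for SEMA3G. The ranges over the libraries left out were −0.27 to 0.91 for SEMA3B, −0.16 to 0.94 for SEMA3F, −0.51 to 0.48 for SEMA3G, −0.61 to 1.501 for SEMA7A, −0.39 to 0.21 for PLXNA1, −0.15 to 0.98 for NRP1, −0.31 to 0.0273 for CFL1, −0.12 to 0.24 for GIPC1 and −0.44 to 0.41 for VEGFA. VEGFA was also at −0.0188 with the replicate block and at −0.0251 with limma-voom.

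The replicate numbers are not said to pair the populations. The difference between replicates 2 and 1 had a correlation of −0.0604 across tested genes between the groups. The replicate block left 8 members called (7 higher and 1 lower) and 18 pathway genes, PTK7 being lost at a log2 change of −1.15. With the longest transcript as length, the same 5 members had the highest levels per kilobase in each group, in another order of PLXND1 and SEMA4B in resistant cells. Where 1 library was left out, the lone library of its group was assumed to vary like the other group. NRP2, PLXNC1, SEMA4A and PLXNA4 rest on few counts, and the part of depth in their results was not tested. NRP2 and NRCAM did not pass the stricter filter and have no value under it.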
